A study of Mus musculus with 14 samples.

Results

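The replication-dependent histone genes encode the core histones H2A, H2B, H3 and H4 and the linker histone H1. They were taken here as every gene of the deposited table whose symbol is H1f1 to H1f5, or H2ac, H2bc, H3c or H4c with a number, and which is not annotated as a pseudogene. This gave 55 of 55487 genes: 5 of H1, 14 of H2A, 14 of H2B, 12 of H3 and 10 of H4. A further row, H2ac14, carries a matching symbol but is annotated as a pseudogene and was left out, and 8 protein-coding histone copies listed under older Hist1h symbols fall outside the rule. In the GENCODE M21 annotation of GRCm38, 45 of the genes lie on chromosome 13 between positions 21715763 and 23934851, and 10 lie on chromosome 3 between 96219865 and 96270132.

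A dividing cell needs new histones for the DNA it copies, and these genes supply them during S phase. They are small, clustered and mostly without introns, and their mRNAs end in a conserved stem-loop in place of a poly(A) tail. SLBP binds that stem-loop, NPAT drives transcription of the clusters, and the mRNAs are degraded when DNA synthesis stops. Some of these genes can also give polyadenylated transcripts, as the genes of the replication-independent variants H2A.Z and H3.3 do.

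The data are bulk RNA-seq of ureteric bud cells, the epithelium that forms the kidney collecting ducts, from mouse embryo kidneys taken at E13.5. The cells were sorted for GFP, which the Hoxb7-Cre transgene expresses together with Cre in that lineage. There were 5 libraries labelled Cep120 KO (numbers 2, 4, 5, 6 and 7), 3 control libraries of that line, 3 labelled Pkd1 KO and 3 control libraries of the Pkd1 line. Cep120 is a centriole protein, and Pkd1 encodes polycystin-1. All titles carry the prefix hox; the knockout titles read homo and the control titles read het, although the genotype label of the controls is WT. The alleles, the litters and any pooling of embryos were not given in the sources used here. Since nothing says that libraries of a group came from separate embryos, p-values measure only the spread between these libraries.

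Library totals ran from 11347628 to 27967540 estimated counts, of which the 55 genes took 0.0254% to 0.100%. Cep120 itself was at 7.87, 19.5, 21.2, 13.1 and 16.5 CPM in libraries 2, 4, 5, 6 and 7 labelled Cep120 KO. Its controls ran from 6.41 to 10.6 CPM, so it was not lower. Library 2 lay within the control range and libraries 4 to 7 above it. The gene count spans all exons and the deleted exons are not given, so this count does not check the label, and every direction drawn from these libraries rests on the label alone. Pkd1 ran from 2.39 to 2.68 CPM in the libraries labelled Pkd1 KO and from 3.34 to 4.60 CPM in their controls. Among the libraries labelled Cep120 KO, libraries 6 and 7 had the lowest summed level of 15 ureteric bud markers, 1640 and 2235 CPM against 3826 to 4352 CPM in the other 12. They had the highest summed level of 7 nephron progenitor markers, 588 and 462 CPM against at most 69.1 CPM elsewhere, with Six2 at 127 and 86.1 CPM. Summed erythroid markers ran from 5.31 to 1089 CPM in the libraries labelled Cep120 KO and from 493 to 7179 CPM in their controls, with 0 of 9 genes called. Macrophage markers ran from 4.98 to 22.0 against 23.8 to 49.2 CPM, with 2 of 8 called lower, and platelet markers from 2.01 to 4.62 against 5.59 to 462 CPM, with all 4 tested genes called lower. The part of these markers in the histone values was not tested. In bulk RNA, fewer cells of a type and less RNA per cell cannot be told apart.

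The cDNA kit named in the labels primes on poly(A), so where a histone transcript ends bears on whether it is read at all. The stem-loop was searched in the M21 transcript sequences of the 55 genes as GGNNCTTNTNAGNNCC, read on the transcript strand, with its 6-base stem arms fully paired. It was found in 37 of the 55 genes, and in 72 of 141767 transcripts of the annotation (0.0508%). The 8 forms are shown because they are the mRNA end these genes share; capitals mark the paired stem and lower case the 4-base loop.
H1f2, H1f4, H2ac7, H2ac8, H2ac18, H3c4 and 15 other genes of H1, H2A, H2B and H3: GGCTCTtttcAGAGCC
H2bc3, H2bc12, H3c3, H3c6 and H3c7: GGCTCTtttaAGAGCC
H4c3, H4c4, H4c6 and H4c8: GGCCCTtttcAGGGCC
H4c9 and H4c14: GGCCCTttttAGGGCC
H4c2 and H4c11: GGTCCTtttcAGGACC
H4c1: GGCCCTtctcAGGGCC
H3c8: GGCTCTtcttAGAGCC
H2ac20: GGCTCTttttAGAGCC
The stem was identical in the 28 genes of H1, H2A, H2B and H3 that had one, while the 9 H4 genes had either of 2 other stems.

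The annotated ends were of 3 kinds. In 18 genes, H2ac7, H2ac18, H2bc11 and H4c8 among them, the longest-running model stopped within 100 bases of the stem-loop. In 19 genes a model ran further, by 1153 bases in H1f4, 840 in H1f2, 770 in H4c4, 330 in H4c9 and 151 in H2ac8, and 8 of the 19 had AATAAA or ATTAAA in the last 50 bases. In the other 18 genes no model held a stem-loop, either because the model is short, as in H2ac12 (405 bases) and H1f5 (743 bases), or, as in H2bc21 (2620 bases), although it is long. The genes of each kind were measured in every library: per length, they summed to 136 to 488 TPM for models running past the stem-loop, 138 to 456 TPM for models ending near it, and 229 to 2534 TPM for models without one. In Cep120-line control 3 H2ac12 alone gave 1800 of the 2534 TPM. In the Pkd1 line, where H2ac12 had at most 2.47 TPM, the kind without a stem-loop summed to 229 to 300 TPM. The median model length, which enters TPM, was 1249, 514 and 402 bases for the 3 kinds in that order. In the Cep120 comparison described below the median log2 fold changes were -0.35 over 19 tested genes, -0.48 over 17 and -0.66 over 14 in the same order, and the difference between the kinds was not tested.

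Per length, H2ac12 had the highest mean over the 14 libraries, 385 TPM, but ranged from 0 to 1800 TPM, a spread that follows the mouse line and is described further on. H2ac8 followed with 161 TPM (range 55.5 to 252), then H2ac18 with 81.3 TPM (19.6 to 150.1) and H1f5 with 70.9 TPM (26.2 to 101). H3c13 had 66.2 TPM (7.56 to 156) and H4c4 57.5 TPM (23.4 to 80.7). The ranges of neighbours in this order overlap throughout. H2bc4 was the highest H2B gene at 40.5 TPM (22.0 to 87.0). Of the remaining H1 genes, H1f4 had 20.4 TPM, H1f1 11.8 TPM, H1f2 7.33 TPM and H1f3 0.468 TPM. H2ac1 had no reads in any library, and H2ac1, H2ac21, H2bc1, H4c6 and H4c12 were too low to be tested, which left 50 genes.

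The series' design text asks which pathways differ on loss of centrosomes, which the Cep120 comparison addresses through the labels alone, since centrosomes are not measured in these files. Of the 50 tested histone genes, 1 was called lower in the libraries labelled Cep120 KO and 0 higher (p under 0.05 after Benjamini-Hochberg adjustment of edgeR's quasi-likelihood test), where 6.26% of all 16876 tested genes were called lower and 8.4% higher. The called share of histone genes was thus no larger than the background. Their fold changes lay mostly below zero: 37 of 50 were negative, against 7525 of all 16876 tested genes. The median log2 fold change was -0.49, against 0.12 over all tested genes. Several of the 50 share most of their sequence, as described further on, so they are not 50 separate measurements. At an unadjusted p under 0.05 there were 9 of the 50, against 5680 of all tested genes. The median was lowest in H1 (-1.14, 4 of 5 genes below zero) and H4 (-0.87, 6 of 8), followed by H2A (-0.53, 10 of 12), H2B (-0.37, 10 of 13) and H3 (-0.17, 7 of 12).

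Library 2 stood apart from the other libraries labelled Cep120 KO. It lay above all 3 controls in 19 of the 50 genes, where 26.3% of all tested genes did, and below all 3 in 4, where 30.3% did. Libraries 4 and 5 lay below all 3 controls in 36 and 37 of the 50 genes (31% and 31.2% of all genes). Library 6 did so in 25 and library 7 in 16 (37.6% and 36.3% of all genes). Above all 3 controls lay 1 gene in library 4 (37% of all genes), 0 in library 5 (37.6%), 8 in library 6 (41.6%) and 10 in library 7 (41.6%). Without library 2 the test called 11 histone genes lower, among them H1f4, H1f5, H2ac7, H2ac8, H2ac12, H2bc21, H4c4 and H4c8. In that setting the calls over all 16825 tested genes also grew, to 2495 lower and 3224 higher, from 1057 and 1418 with library 2. At an unadjusted p under 0.05 there were 15 of the 50 histone genes and 7490 of all genes. Without any 1 of the other 7 libraries of the comparison it called none. Libraries 4 and 5 differed from each other less than any other pair within a group, with a chi-square per gene of 4.54 against at least 12.6. With both left out 2 histone genes, H2ac11 and H2bc4, were called higher and 0 lower. In that setting 6 of 51 tested histone genes and 5898 of all 16630 tested genes had an unadjusted p under 0.05.

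Summed over all 55 genes, the TMM-scaled level was 944 CPM in library 2 and 228, 221, 383 and 472 CPM in libraries 4, 5, 6 and 7, against 558, 609 and 1119.9 CPM in the controls. Libraries 4 to 7 lay below every control, and library 2 between controls 2 and 3. The H1 sum was 157, 32.9, 33.1, 54.0 and 52.6 CPM against 106, 94.7 and 157 CPM, and the H4 sum 107, 26.0, 28.5, 60.7 and 52.4 CPM against 90.5, 86.5 and 104 CPM. The H2B sum was 118, 66.6, 63.1, 87.8 and 79.4 CPM against 88.5, 96.5 and 90.7 CPM, with library 6 next to the controls. The H2A sum was 461, 84.9, 77.6, 156 and 242 CPM against 254, 292 and 703 CPM, and the H3 sum 101, 17.3, 18.4, 24.5 and 46.0 CPM against 18.9, 39.5 and 65.4 CPM. Both had a wide spread among the controls, and in H3 libraries 6 and 7 overlapped them. The scaling matters to this picture, since TMM factors were 1.15 to 1.32 in libraries 4 to 7 and below 1 in all others. In the deposited CPM, which has no such scaling, the sum over the 55 genes was 856, 262, 254, 489 and 624 CPM against 481, 540.0 and 1002 CPM, so that only libraries 4 and 5 lay below every control. The deposited H2B sum was 107, 76.8, 72.8, 112 and 105 CPM against 76.3, 85.4 and 81.2 CPM, with libraries 2, 6 and 7 above every control. In that unit the group mean was above that of the controls for H2B (94.6 against 81.0) and H3 (44.9 against 36.6). It was below for H1 (71.5 against 105), H2A (225 against 369) and H4 (61.3 against 82.5). Summed S phase genes (15 genes) were 3504, 2766, 2675, 1817 and 1952 TMM-scaled CPM against 2937 to 3312 CPM. In that unit libraries 4 to 7 were the lowest. That order rests on the same scaling, with factors of 1.15 in libraries 4 and 5 and 0.862 to 0.896 in the controls. Without those factors libraries 4 and 5 would not lie below the controls in this sum. The S phase sum was not taken in the deposited CPM. Of the 15 genes 8 had a negative log2 fold change and 7 a positive one, with a median of -0.19. The part of the S phase genes in the histone sums was not tested.

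**Figure D1:**
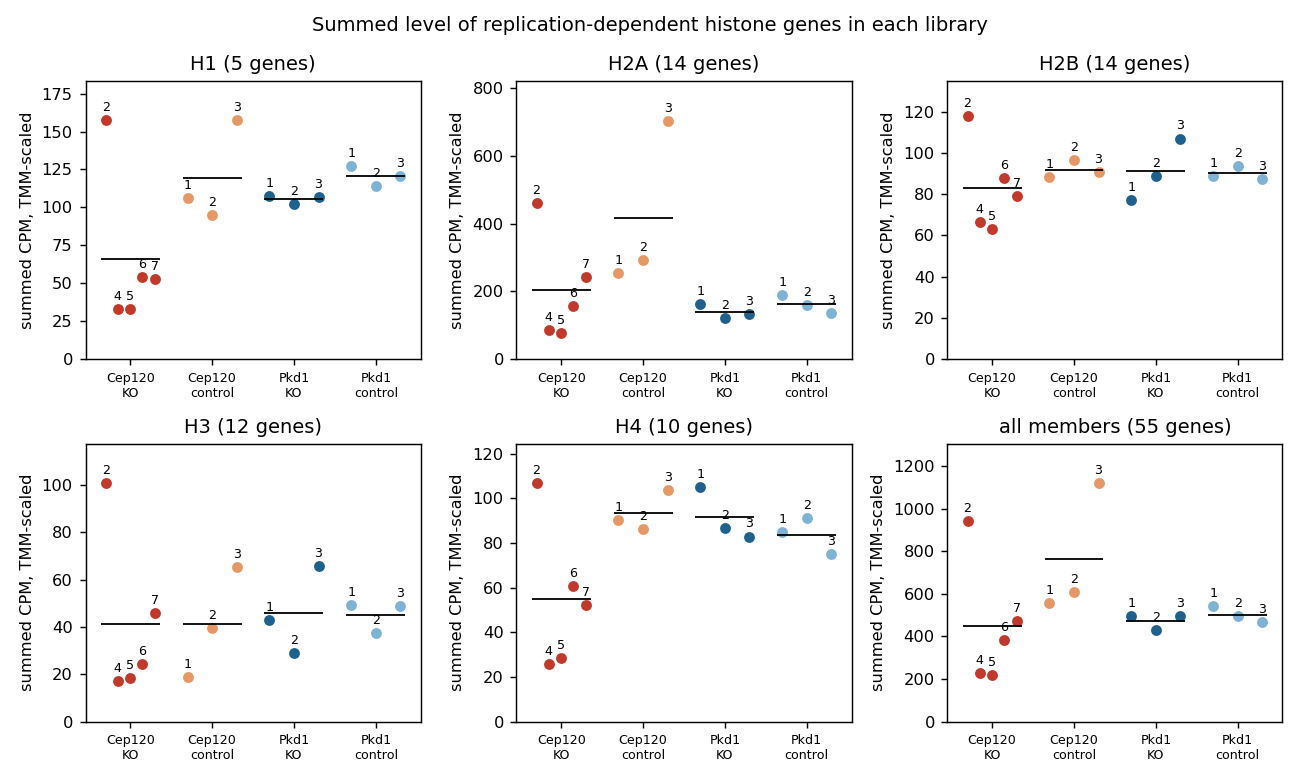
Summed TMM-scaled CPM (y axis, from 0) of each histone class and of all 55 genes in the 4 groups (x axis). Each point is a library marked with its number and each line a group mean; library 2 of the group labelled Cep120 KO lies at 944 CPM for all genes, while libraries 4 to 7 lie between 221 and 472 CPM, below their 3 controls.

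H2ac7, an H2A gene of the chromosome 13 cluster (position 23574381 to 23574952, plus strand), was the histone gene called. It measured 23.5, 3.31, 2.63, 6.23 and 6.78 CPM in libraries 2, 4, 5, 6 and 7 labelled Cep120 KO and 31.3, 29.9 and 36.3 CPM in the controls. All 5 libraries lay below the 3 controls, library 2 closest to them. The log2 fold change was -1.95 with a standard error (SE) of 0.53 and an adjusted p of 0.0332 (edgeR's quasi-likelihood test, Benjamini-Hochberg). The call was lost with any 1 of libraries 4 to 7 or of the controls left out. Of the 50-base stretches of the H2ac7 transcript 32.9% occur in no other gene. How reads matching several genes were assigned is not known, and the part of that assignment in this call was not tested. Only 2 of the 50 genes had groups without overlap on the low side, H2ac7 and the H3 gene H3c10, where 8.75% of all tested genes did, and none on the high side, where 6.41% did. H3c10 was outside the rule for named genes and was not called (log2 fold change -0.96, adjusted p = 0.143, edgeR).

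The most abundant H2A genes did not pass the test. H2ac8 was at 118 CPM in library 2 and at 17.3, 16.8, 30.3 and 36.5 CPM in libraries 4 to 7, against 90.9, 80.6 and 114 CPM in the controls. The 4 later-numbered libraries were all below the lowest control and library 2 was above the highest. Its log2 fold change was -1.12 with an SE of 0.49 (adjusted p = 0.13, edgeR). H2ac12 measured 199, 39.9, 33.4, 56.0 and 78.0 CPM against 93.5, 122 and 376 CPM, with libraries 4 to 7 below the lowest control and library 2 within the wide spread of the controls (log2 fold change -1.28, SE 0.57, adjusted p = 0.13, edgeR). H2ac13 overlapped the controls, at 18.9, 7.20, 7.68, 18.2 and 24.6 CPM against 10.9, 10.47 and 36.8 CPM (log2 fold change -0.34).

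The linker histone genes, whose products bind the DNA between nucleosomes, did not move alike. H1f5 was at 62.3 CPM in library 2 and at 12.3, 12.1, 13.47 and 10.3 CPM in libraries 4 to 7, against 61.8, 43.7 and 63.8 CPM in the controls. Libraries 4 to 7 were close to each other and below every control, and library 2 was within the control range. The log2 fold change was -1.36 with an SE of 0.49 (adjusted p = 0.0711, edgeR). H1f4 measured 67.3, 11.7, 11.99, 22.6 and 24.6 CPM against 23.8, 29.6 and 62.5 CPM, so libraries 2 and 7 lay above the lowest control (log2 fold change -0.49, SE 0.49, adjusted p = 0.517, edgeR). H1f2 measured 10.6, 6.72, 6.08, 14.8 and 14.1 CPM against 9.22, 7.19 and 10.7 CPM, with libraries 6 and 7 above all controls and libraries 4 and 5 below them (log2 fold change 0.22, SE 0.31, adjusted p = 0.658, edgeR).

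Among the H4 genes, which encode a single protein sequence from many copies, H4c4 was the most abundant. It measured 77.1, 16.8, 16.2, 40.4 and 34.6 CPM against 70.5, 62.4 and 83.5 CPM, again with libraries 4 to 7 below the controls and library 2 among them (log2 fold change -0.96, SE 0.39, adjusted p = 0.105, edgeR). H4c8 also had libraries 4 to 7 below the controls and library 2 among them, at 3.47, 1.23, 1.56, 0.824 and 1.18 CPM against 2.996, 3.41 and 5.34 CPM (log2 fold change -1.25, SE 0.42, adjusted p = 0.0571, edgeR). H4c9 measured 17.0, 5.28, 8.05, 16.8 and 13.1 CPM against 11.9, 13.96 and 4.79 CPM, so that its groups overlapped in part, with libraries 2 and 6 above every control (log2 fold change 0.23).

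**Figure D2:**
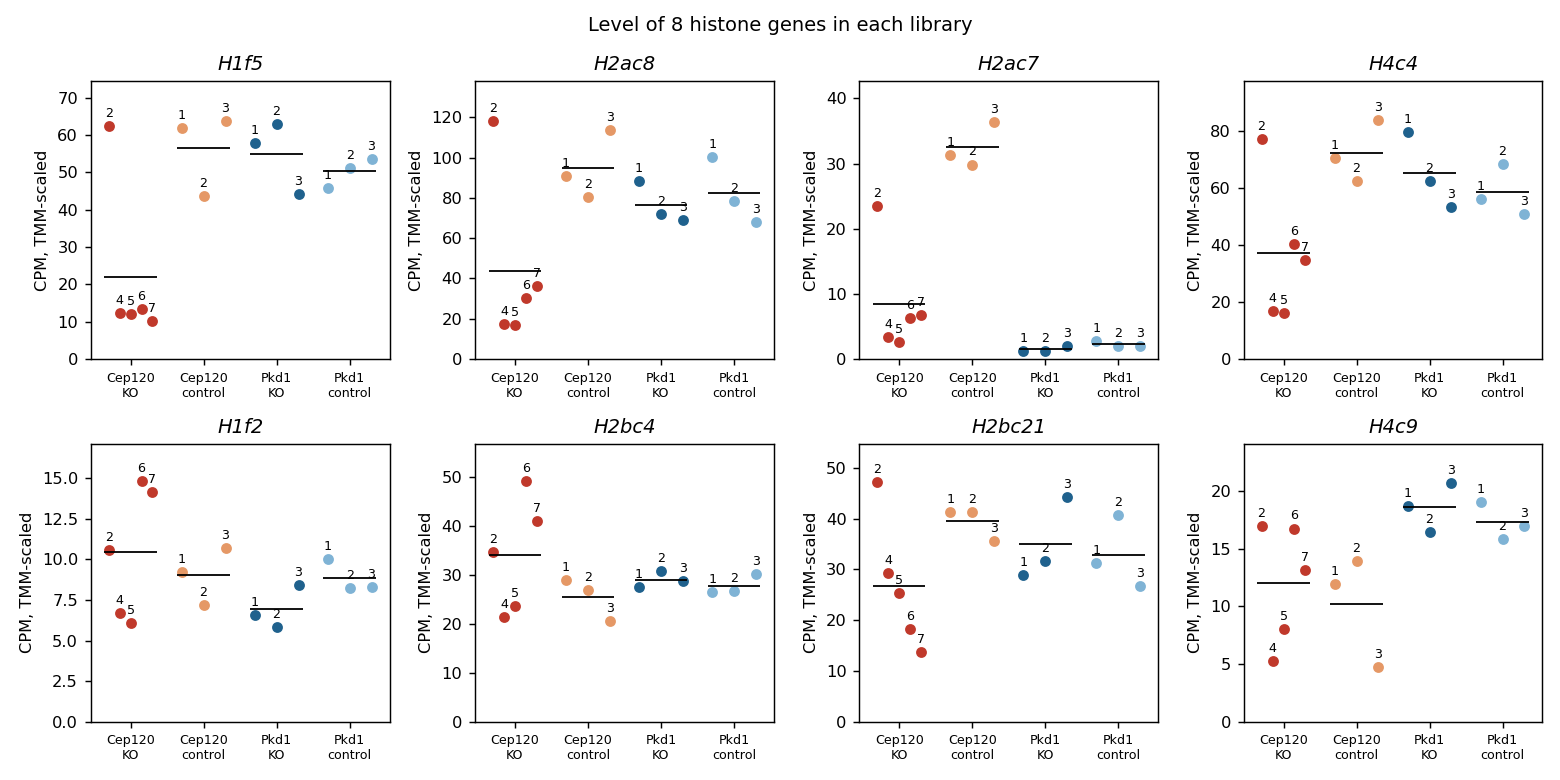
TMM-scaled CPM (y axes, from 0) of 8 histone genes in the 4 groups (x axes), with each library as a numbered point and each group mean as a line. In H1f5, H2ac8, H2ac7 and H4c4 libraries 4 to 7 labelled Cep120 KO lie below all 3 controls of their line, whereas H1f2, H2bc4 and H4c9 show no such order.

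The H2B sum ran from 63.1 to 118 CPM over the 14 libraries, the narrowest range of the 5 classes relative to its level. H2bc21, on chromosome 3, measured 47.2, 29.3, 25.4, 18.3 and 13.7 CPM against 41.4, 41.4 and 35.6 CPM (log2 fold change -0.56, SE 0.31, adjusted p = 0.226, edgeR). Its lowest libraries were 6 and 7, whereas those of H4c4 were 4 and 5. H2bc4 measured 34.8, 21.4, 23.6, 49.4 and 41.0 CPM against 29.0, 26.9 and 20.6 CPM, with libraries 2, 6 and 7 above all controls (log2 fold change 0.42, SE 0.25, adjusted p = 0.256, edgeR). H2bc11 stayed between 2.50 and 5.00 CPM against 3.23 to 5.95 CPM (log2 fold change -0.37).

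The H3 genes were uneven between libraries of a group. H3c13 measured 35.3, 4.80, 4.72, 1.61 and 14.7 CPM against 1.82, 10.2 and 24.5 CPM, a control range that spans most of the values of the other group (log2 fold change 0.00, SE 0.85). H3c15 measured 22.9, 1.60, 2.38, 0.860 and 5.89 CPM against 0.470, 4.52 and 12.5 CPM (log2 fold change 0.20, SE 0.99). H3c4, of the chromosome 13 cluster, measured 15.6, 3.89, 3.53, 5.73 and 6.11 CPM against 1.94, 5.83 and 4.85 CPM (log2 fold change 0.72, SE 0.63, adjusted p = 0.446, edgeR). For the first 2 genes the SE is close to 1 on the log2 scale, so a difference of that size was not detectable.

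**Figure D3:**
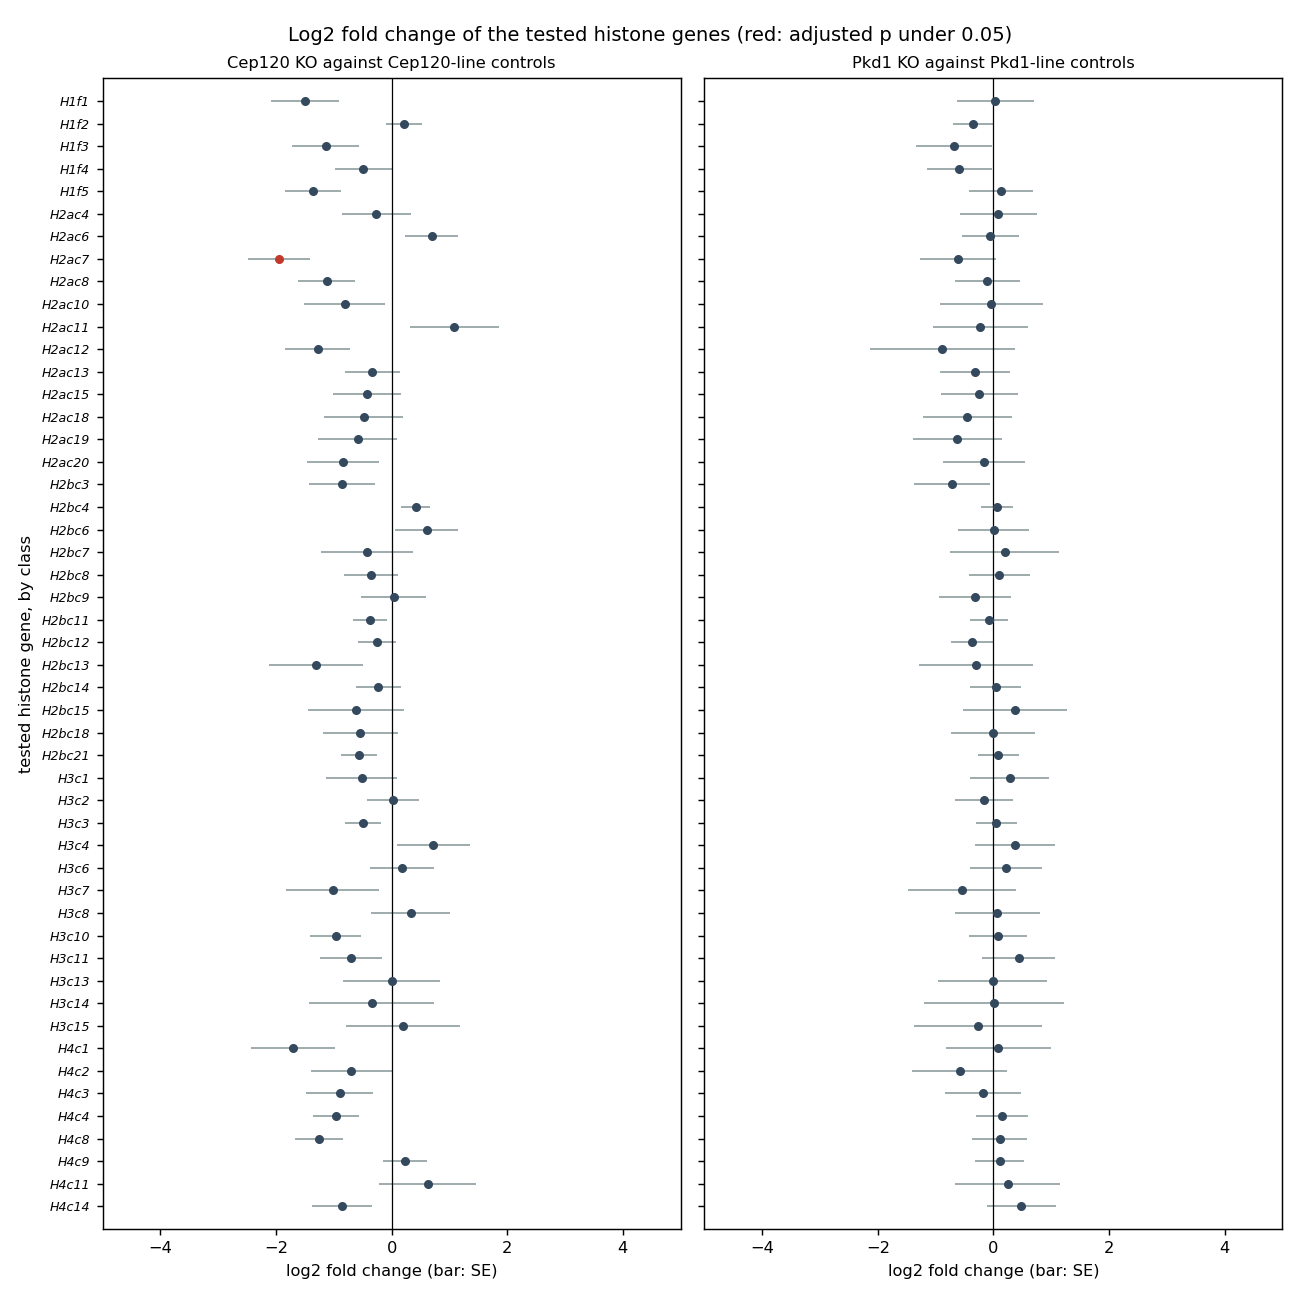
Log2 fold change (x axis) with its SE (bars) of the 50 tested histone genes (y axis, ordered by class) in the Cep120 comparison (left) and the Pkd1 comparison (right). Red marks an adjusted p under 0.05, which H2ac7 alone reached, in the Cep120 comparison; 37 points lie below zero on the left and 26 on the right.

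In the Pkd1 comparison none of the 50 histone genes was called in either direction, and 0% of all tested genes were (edgeR's quasi-likelihood test, Benjamini-Hochberg). At an unadjusted p under 0.05 there were 0 of the 50 and 259 of all tested genes. The median log2 fold change of the histone genes was -0.01, the same as over all genes, and 26 of the 50 lay below zero. The sum over the 55 genes was 494, 428 and 496 CPM in the libraries labelled Pkd1 KO and 541, 496 and 469.5 CPM in their controls, a narrow band next to the 221 to 1119.9 CPM of the Cep120 line. H1f4 was at 33.8, 23.1 and 40.7 CPM against 55.2, 43.6 and 47.9 CPM, without overlap but not called (log2 fold change -0.59, SE 0.56, adjusted p = 1, edgeR). Altogether 3 genes had groups without overlap on the low side, H1f4, H2ac7 and H2ac19 (6.19% of all tested genes), and 0 on the high side (4.88%). H1f5 was at 57.8, 63.0 and 44.2 CPM against 45.9, 51.1 and 53.7 CPM, H2ac8 at 88.4, 72.0 and 68.9 CPM against 100.5, 78.5 and 67.9 CPM, and H4c4 at 79.5, 62.4 and 53.2 CPM against 56.1, 68.4 and 50.9 CPM. All 3 overlapped between the groups.

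Whether the Cep120 and Pkd1 effects differ was tested directly, and no histone gene passed (0 of 50, with 0% of all tested genes; edgeR's quasi-likelihood test, Benjamini-Hochberg). At an unadjusted p under 0.05 there were 0 of the 50 and 3436 of all tested genes. The smallest adjusted p was 0.247, for H4c8, with a difference of -1.36 on the log2 scale, followed by H1f5 with a difference of -1.49 (adjusted p = 0.272, edgeR). The median difference over the 50 genes was -0.35 against 0.13 over all tested genes. Without library 2, 6 histone genes were called, H1f1, H1f5, H2ac7, H2ac8, H4c4 and H4c8, all with the lower effect in the Cep120 line, where 1423 of all 16825 tested genes were called with a lower effect and 1717 with a higher one.

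The lines themselves differed in a small group of H2A genes. Between the control groups 21 genes were called, 18 of them higher in the Cep120 line (0.107% of all tested genes) and 3 lower (0.0178%). Of those 18 genes 3 were histone genes: H2ac12, H2ac13 and H2ac7. H2ac12 held 1592, 2970 and 6124 counts in the Cep120-line controls and 9, 2 and 10 counts in the Pkd1-line controls. In CPM these were 93.5, 122 and 376 against 0.422, 0.0915 and 0.451, with no overlap and a log2 fold change of 9.23 (SE 0.98, adjusted p = 0.000661, edgeR). The libraries labelled knockout followed their line, with 748 to 3028 counts in the Cep120 line and 0, 5 and 4 counts in the Pkd1 line.

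H2ac13 was at 10.9, 10.47 and 36.8 CPM in the Cep120-line controls and at 1.31, 1.14 and 1.71 CPM in the Pkd1-line controls (log2 fold change 3.79, SE 0.61, adjusted p = 0.0233, edgeR). H2ac7 was at 31.3, 29.9 and 36.3 CPM against 2.82, 1.97 and 1.94 CPM (log2 fold change 3.85, SE 0.68, adjusted p = 0.0494, edgeR). The call of H2ac7 was lost when any 1 of the 6 control libraries was left out and with length and GC offsets, and that of H2ac13 when any of 4 of the 6 was left out. In both genes every library of the Cep120 line was above every library of the Pkd1 line, knockouts included, except that H2ac7 was at 2.63 CPM in library 5, below the 2.82 CPM of Pkd1-line control 1. H2ac10 was likewise high in the Cep120 line, at 5.34, 8.13 and 51.1 CPM against 1.27, 1.56 and 0.857 CPM, without passing the test (log2 fold change 4.12, SE 0.92, adjusted p = 0.197, edgeR). H2ac11 went the other way, at 4.17, 6.36 and 0.921 CPM against 17.4, 13.1 and 14.4 CPM (log2 fold change -1.96, SE 0.86, adjusted p = 0.954, edgeR). H2ac10 and H2ac11 were outside the rule for named genes and were chosen after their values were seen. Groups without overlap were found in 7 of the 50 genes on the high side (11.5% of all tested genes) and 4 on the low side (9.99%).

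These H2A genes are near copies of each other, and the sources used here do not say how reads that match several of them were assigned. Over the first 360 coding bases H2ac12 differed from H2ac13 at 2 positions, from H2ac7, H2ac11, Hist1h2ao and Hist1h2ap at 3 each, and from H2ac10 at 4. Of the 50-base stretches of the H2ac12 transcript only 9.27% occur in no other gene, against 9.88% for H2ac13, 20.3% for H2ac10, 21.1% for H2ac11, 32.9% for H2ac7 and 56.8% for H2ac8. By contrast all stretches of H1f5 and H2bc21 are their own, and 89.8% of those of H4c4. The first 60 coding bases are printed to show how few letters separate these genes; capitals mark bases that differ from H2ac12.
H2ac12: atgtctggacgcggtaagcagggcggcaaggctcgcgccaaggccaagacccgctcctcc
H2ac13: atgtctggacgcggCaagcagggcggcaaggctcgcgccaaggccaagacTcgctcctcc
H2ac11: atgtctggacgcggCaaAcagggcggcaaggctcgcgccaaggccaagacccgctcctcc
H2ac7 and H2ac10: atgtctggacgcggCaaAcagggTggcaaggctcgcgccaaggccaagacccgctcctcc
Hist1h2ao and Hist1h2ap: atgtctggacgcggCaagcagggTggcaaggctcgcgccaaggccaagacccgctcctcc
H2ac12 differs from each of the others here at 2 or 3 of 60 bases.

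A sum over such copies does not depend on which of them a read was given to. It does not recover reads that were discarded or given to a gene outside the sum, and whether there were such reads is not known. The 12 genes that share at least 50% of the 50-base stretches of H2ac12, a group formed after the values were seen, comprise 8 of the 55 genes and 4 outside the rule (Hist1h2an, Hist1h2ao, Hist1h2ap and the pseudogene H2ac14). Their sum was 483, 584 and 945 CPM in the Cep120-line controls and 626, 617 and 577 CPM in the Pkd1-line controls, and these ranges overlap. Within the sum the 8 genes came to 242, 263 and 620.4 CPM against 134, 104 and 93.1 CPM, and the 4 outside the rule to 241, 321 and 325 CPM against 493, 513 and 484 CPM. Hist1h2ap alone was at 203, 271 and 258 CPM against 425, 449 and 419 CPM, lower in the line where H2ac12 was higher. In the libraries labelled Cep120 KO the sum was 948, 137, 141, 448 and 678 CPM, so libraries 4 and 5 were below all 3 controls, library 6 just below, and libraries 2 and 7 within or above their range.

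**Figure D4:**
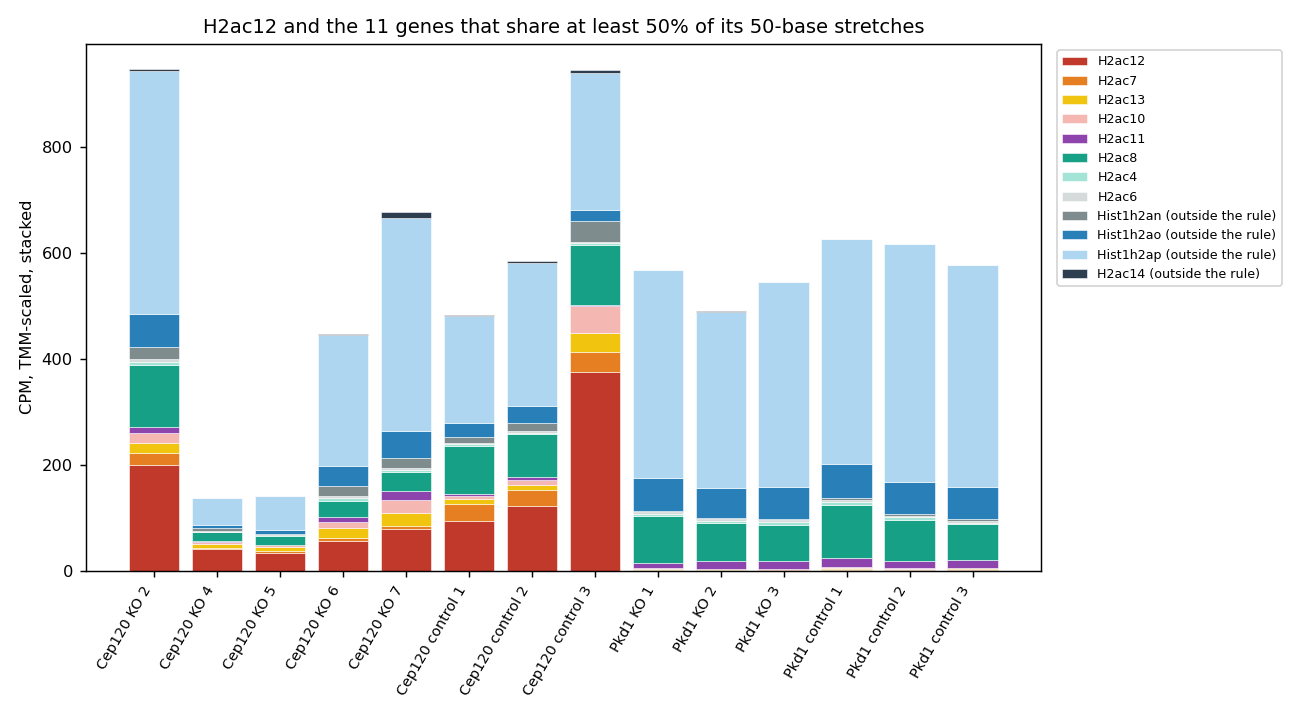
Stacked TMM-scaled CPM (y axis, from 0) of H2ac12 and the 11 genes that share at least 50% of its 50-base stretches, by library (x axis). H2ac12 (lowest segment) is at 33.4 to 376 CPM in the Cep120-line libraries and at most 0.451 CPM in the Pkd1-line libraries, while Hist1h2ap is the largest segment in every Pkd1-line library.

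H2ac12 lies on the minus strand of chromosome 13 at 22035164 to 22035568 and is paired head to head with the H2B gene H2bc12. H2bc12 stayed between 3.26 and 8.41 CPM in all 14 libraries, and was not called between the control groups. The H2ac12 promoter is printed because the promoter windows of both genes overlap in it. The sequence is from RefSeq (GRCm38.p6), 250 bases before to 50 after the start, on the minus strand, and capitals mark 3 motifs on either strand: CCAAT (the CCAAT box), TATAAA (the TATA box) and the octamer, which reads ATTTGCAT.
H2ac12 promoter, chr13:22035594-22035893: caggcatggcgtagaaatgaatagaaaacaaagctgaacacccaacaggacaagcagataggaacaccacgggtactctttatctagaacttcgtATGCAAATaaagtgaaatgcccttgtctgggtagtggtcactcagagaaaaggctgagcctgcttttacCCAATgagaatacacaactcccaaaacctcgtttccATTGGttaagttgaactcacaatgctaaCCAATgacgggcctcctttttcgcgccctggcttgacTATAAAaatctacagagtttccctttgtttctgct
All 3 motifs occur in this window. Over the 50 histone genes with a RefSeq promoter, CCAAT was found in 44 (88%, against 37.9% of 27025 promoters of the same length), TATAAA in 30 (60%, against 14.2%) and ATTTGCAT in 12 (24%, against 1.75%). The octamer occurred in 6 of 14 H2A and 6 of 12 H2B promoters and in none of the H1, H3 or H4 promoters, and CCAAT in 3 of 9 H4 promoters and in every promoter of the other classes. The promoters of H2bc4, H2bc21, H3c1, H3c7 and H4c14 were not matched.

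The 10 genes on chromosome 3 summed to 172, 46.3, 43.1, 36.1 and 83.4 CPM in the libraries labelled Cep120 KO and to 57.1, 88.1 and 159 CPM in their controls. Several of them vary together from library to library within a group. H2ac18 was at 43.2, 5.97, 5.71, 11.1 and 34.3 CPM against 7.05, 18.7 and 58.3 CPM, and H2ac19 at 13.2, 2.24, 3.24, 1.29 and 9.07 CPM against 2.41, 6.90 and 16.8 CPM. H3c13 and H3c15, given above, and H3c14 share this pattern: library 2 and control 3 were high, and libraries 4 to 6 and control 1 were low. H2bc21, in the same cluster, was not low in control 1, at 41.4 CPM. In the Pkd1 line H2ac18 was at 34.1, 17.0 and 24.1 CPM in the libraries labelled knockout and 37.9, 36.6 and 28.1 CPM in controls. H2ac18, H2ac19, H3c13, H3c14 and H3c15 also share sequence. All 50-base stretches of H2ac19 occur in H2ac18 and all of H3c14 in the gene Gm20634, while 10.6% of those of H2ac18, 20.3% of H3c13 and 36.5% of H3c15 are found in no other gene. Their separate values are therefore uncertain.

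**Figure D5:**
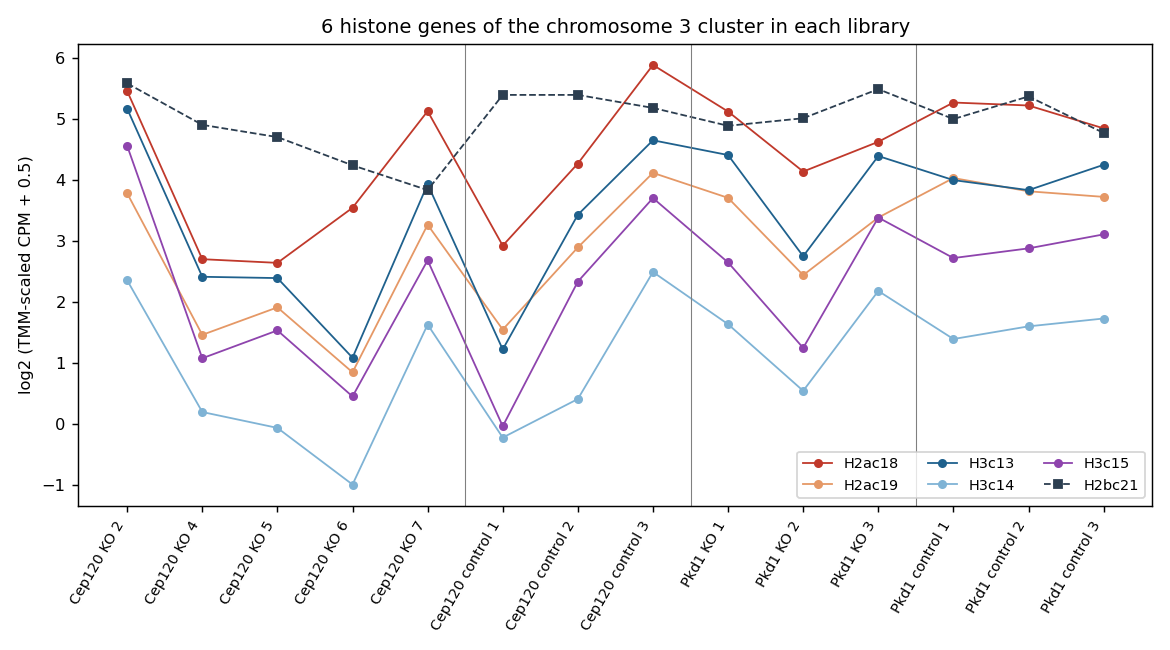
Level of 6 histone genes of the chromosome 3 cluster as log2 of TMM-scaled CPM plus 0.5 (y axis) in the 14 libraries (x axis; vertical lines separate the groups, and lines join points only to guide the eye). H2ac18, H2ac19, H3c13, H3c14 and H3c15 are low together in Cep120-line control 1 and libraries 4 to 6, and H2bc21 (squares) is not low in control 1.

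Of 11 genes for replication-independent variants, whose mRNAs are polyadenylated, 2 were called lower and 0 higher in the libraries labelled Cep120 KO. Over all tested genes 6.26% were called lower and 8.4% higher, which is the background for this list and the 4 that follow. H2az1, the main gene of H2A.Z, was at 5504, 2525, 2544, 2319 and 2028 CPM against 6244, 5852 and 5826 CPM, with all 5 libraries below the controls and library 2 close to them (log2 fold change -1.002, SE 0.27, adjusted p = 0.0322, edgeR). H3f3a, which encodes H3.3, was at 1330, 727, 698, 779 and 672 CPM against 1592, 1384 and 1306 CPM (log2 fold change -0.76, adjusted p = 0.0332, edgeR). H3f3b, the other H3.3 gene, did not pass (log2 fold change -0.21). H2ax, whose mRNA can end at a stem-loop or with a poly(A) tail, was at 169, 93.0, 99.8, 422 and 415 CPM against 109, 117 and 192 CPM, so that libraries 4 and 5 lay below and 6 and 7 above the controls (log2 fold change 0.78, adjusted p = 0.264, edgeR). H1f0, the linker histone of non-dividing cells, was not called (log2 fold change 0.48, adjusted p = 0.118, edgeR).

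Of 17 genes for histone gene transcription and 3-prime end processing, 4 were called higher and 0 lower. Casp8ap2, a component of the histone locus body, was at 7.47, 21.5, 19.99, 49.9 and 52.7 CPM against 6.99, 6.98 and 4.17 CPM (log2 fold change 2.32, SE 0.52, adjusted p = 0.029, edgeR). Npat, its partner there, was at 16.6, 22.8, 20.2, 20.3 and 20.9 CPM against 10.3, 14.04 and 14.5 CPM (log2 fold change 0.64, adjusted p = 0.0433, edgeR). In both genes all 5 libraries were above the controls, library 2 closest to them. Srrt rose with a log2 fold change of 1.11 (adjusted p = 0.0335, edgeR). Slbp, which binds the stem-loop, was at 221, 145, 153, 355 and 311 CPM against 177, 186 and 207 CPM and was not called (log2 fold change 0.32, adjusted p = 0.421, edgeR). Libraries 4 and 5 were below the controls and libraries 2, 6 and 7 above them.

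Of 9 histone mRNA decay genes 1 was called, Tut7, a uridylyltransferase, which was higher (log2 fold change 1.67, adjusted p = 0.029, edgeR). Of 22 histone chaperones 5 were called higher and 2 lower. Atrx, a chromatin remodeller that works with an H3.3 chaperone, rose with a log2 fold change of 2.43 and Cabin1, of the HIRA complex, with 1.88 (both adjusted p = 0.029, edgeR), while Rbbp4, a histone-binding subunit of CAF-1, was lower with a log2 fold change of -0.70 (adjusted p = 0.0291, edgeR). Of 15 S phase genes 1 was called, Dnmt1, the maintenance DNA methyltransferase, which was higher at 31.5, 188, 201, 114 and 143 CPM against 42.1, 46.1 and 34.9 CPM (log2 fold change 1.72, adjusted p = 0.0318, edgeR). Library 2 was below all 3 controls in this gene and the other 4 above. Unlike those of the histone genes, the calls in these 5 lists were not checked in other settings or with libraries left out. In the Pkd1 comparison, in the difference between the effects and between the control groups, 0 genes of these 5 lists were called (edgeR). The smallest unadjusted p of each list in the Pkd1 comparison belonged to H2ax, Cstf2, Lsm1, Rbbp7 and E2f1, with log2 fold changes of -0.59, -0.29, -0.24, -0.37 and 0.23. For the difference between the effects it belonged to H3f3a, Casp8ap2, Tut7, Cabin1 and Dnmt1, with differences of -0.91, 2.41, 1.63, 2.23 and 1.85 on the log2 scale. Between the control groups it belonged to H3f3a, Cpsf2, Dcp2, Chaf1b and Tyms, with log2 fold changes of 0.35, -0.26, -0.40, 0.66 and 0.36.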

How the data were processed

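The authors deposited estimated counts per gene and per transcript, CPM, TPM and log2 CPM, per the file headers; gene-level CPM is the count divided by the library total. DRAGEN and mm9 are named in the submitters' processing notes. How reads were aligned, to which annotation, and how those matching several genes were assigned is not given in the sources used here. A SMARTer Ultra Low kit made the cDNA, per the labels' protocols.

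Of 55774 lines, 287 repeated ones were dropped. Deposited expected counts (88.4% to 91.6% whole numbers) were rounded, filtered (filterByExpr, minimum count 10), scaled by TMM and fitted with 4 group means over all 14 libraries (10 residual degrees of freedom) by edgeR 4.0.16 in R 4.3.3, with Benjamini-Hochberg adjustment over 16876 genes. The fit was tested on simulated data. CPM values in the text are TMM-scaled unless called deposited. Deposited TPM served for levels between genes, and the authors' log2 CPM for an alternative. DESeq2 1.42.0 and limma 3.58.1 were other alternatives, as were left-out libraries. Stem-loops, 50-base stretches and coordinates came from GENCODE M21 (GRCm38), matched by Ensembl identifier (55 of 55 genes), not from mm9. RefSeq promoters were matched by symbol (50 of 55).

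Named genes were those called in any comparison and the 3 most abundant of each class; from each list, up to 3 called genes with the smallest adjusted p, plus H2az1, H3f3a, H3f3b, H2ax, H1f0 and Slbp. The members and lists were chosen with earlier results of these data known. Counts carry no molecular identifiers, and the SEs and p-values cover only the spread between these libraries.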

Additional observations from a re-analysis of the deposited data

Results flagged for a closer look

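In 9 of 25 tests of the 5 libraries labelled Cep120 KO, library 2 was the highest and lay far from the rest, with a gap to the next library divided by the whole range above Dixon's 95% critical value of 0.710. Chance flags about 1 in 20 groups of independent, normally distributed values, and the genes tested share the same libraries. Here the chi-square per gene was 4.54 between libraries 4 and 5 and 29.2 between 6 and 7. Between library 2 and any other it was at least 143. With libraries alike in this way the rate of 1 in 20 need not hold. The ratio was 0.938 for H1f5 (62.3 CPM against 13.47 CPM in the next library) and 0.806 for H2ac8 (118 against 36.5 CPM). It was 0.801 for H2ac7 (23.5 against 6.78 CPM) and 0.786 for H3c4 (15.6 against 6.11 CPM). For H3c15 it was 0.772 (22.9 against 5.89 CPM), and for H1f4 0.767 (67.3 against 24.6 CPM). H2ac12 gave 0.730 (199 against 78.0 CPM) and H4c8 0.722 (3.47 against 1.56 CPM). The sum of the H1 class gave 0.830 (157 against 54.0 CPM). No histone gene moved fully one way in the Cep120 line and fully the other way in the Pkd1 line. The groups separated in only 2 of the 50 genes in the Cep120 line and 3 in the Pkd1 line, all on the low side. This count could therefore only be 0, and its share over all tested genes was not taken.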

How the results depend on the processing

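The 1 call of a lower histone gene in the Cep120 comparison became 2 without the filter on low counts, 3 with DESeq2 (H1f1, H2ac7 and H4c8), 3 with limma-trend on the deposited log2 CPM (H1f1, H1f5 and H2ac7) and 27 with limma-voom and quality weights, where the lower calls over all genes went from 1057 to 3060. It became 0 in a separate fit of the groups compared, with length and GC offsets, with libraries 4 and 5 summed, with libraries 6 and 7 left out, with libraries 4 and 5 left out (where 2 were called higher) and with library 2 as the only knockout library. The last 2 settings, and the sum with the H2A copies, were chosen after seeing the data. Leaving out 1 library gave 0 to 11 lower calls. The main fit had 9 of 50 histone genes and 5680 of all 16876 genes at an unadjusted p under 0.05. Without the filter on low counts these were 7 of 54 and 6647 of 31237. With DESeq2 they were 8 of 50 and 6214 of 16876, and with limma-trend 6 of 50 and 6387 of 16876. The median of -0.49 was -1.16 with limma-voom and 0.28 with library 2 alone. For the difference of effects, the 0 lower calls became 10 with limma-voom (2124 over all genes, from 0) and 0 to 6 with 1 library left out, and the median of -0.35 became -0.92 with limma-voom and 0.31 with limma-trend, where the median of all genes was 0.50. In the Cep120 comparison limma-trend moved the median of all genes to 0.45. The cause of these shifts was not tested. The median of the Pkd1 comparison ran from -0.28 to 0.041 with 1 library left out. Between control groups, 3 higher calls became 1 to 2 with 1 library left out (H2ac7 lost each time, H2ac13 in 4 of 6), and H2ac12 was called in each setting run.

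The mean log2 difference of the summed level in the Cep120 comparison, -0.91, became 0.38 with library 2 alone (range -1.23 to -0.59 with 1 library left out). With the deposited CPM and TPM it stayed negative but was weaker than that range. The group means were 497 against 674 deposited CPM and 1491 against 1994 TPM, next to 450 against 762 TMM-scaled CPM. Between controls, 0.53 became 0.037 with the H2A copies included.

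Named genes that were not called changed sign as follows. With library 2 alone the log2 fold change was 0.82 for H1f4, 0.16 for H1f5, 0.027 for H2ac12, 0.65 for H2ac18, 0.33 for H2ac8, 0.28 for H2bc21, 1.55 for H3c13 and 0.12 for H4c4. With limma-voom it was -0.36 for H1f2, -0.13 for H2bc4, -0.60 for H3c15, -0.078 for H3c4 and -0.55 for H4c9. Without libraries 6 and 7 it was -0.22 for H1f2, 0.28 for H3c13 and -0.033 for H4c9. Without libraries 4 and 5 it was 0.077 for H2ac18, 0.093 for H2ac13 and 0.49 for H3c13. With limma-trend it was 0.14 for H2ac13, 0.028 for H2bc11 and 0.29 for H3c13. H3c13 was 0.20 with libraries 4 and 5 summed, 0.011 in the separate fit and 0.00053 with DESeq2. With 1 library left out the ranges were -1.12 to 0.039 for H1f4, -0.64 to 0.51 for H2ac13, -0.97 to 0.63 for H2ac18, -0.91 to 1.00 for H3c13, -1.10 to 1.40 for H3c15 and -0.11 to 0.52 for H4c9. The cause was not tested.

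Replicate numbers are shared by both Pkd1-line groups and by both control groups, but the labels do not say what they mark. Same-numbered libraries did not deviate together (correlations -0.045, -0.029 and -0.124 in the Pkd1 line, 0.052, 0.029 and -0.007 between controls). With a replicate block the Pkd1 comparison again called 0 histone genes (median -0.09) and the control comparison called 4 (H2ac7, H2ac10, H2ac12 and H2ac13, median 0.01). In that control comparison 8 of 48 histone genes and 1796 of all 14992 genes had an unadjusted p under 0.05 (edgeR's quasi-likelihood test). The main fit had 7 of 50 and 825 of 16876, so the background grew as well. In the blocked Pkd1 comparison these were 3 of 45 and 603 of 14923. No paired analysis was possible for the Cep120 comparison because its groups share only the number 2.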
